A study of Mus musculus with 9 samples.

Results

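The enzymes described here make, degrade or respond to the cyclic nucleotides cAMP and cGMP: cyclases, phosphodiesterases and subunits of protein kinase A. They were taken from the arrays by gene symbol: Adcy7, Gucy1b1, Pde2a, Pde3b, Pde4b, Pde4d, Pde7a, Prkar1a, Prkaca and Prkacb, with every probe set that carries one of these symbols. Of the 10 genes, 8 had a probe set, and together they had 17 of the 22626 probe sets tested. Pde3b and Pde4d are not analysed here. The cells were mouse CD4+CD25+ regulatory T (Treg) cells, separated with magnets, on a C57Bl/6 background. The 3 groups were fl-CBP/Foxp3cre cells (CBP-deleted), fl-p300/Foxp3cre cells (p300-deleted) and Foxp3cre cells with no floxed gene named in the label (control). By these labels all 3 carry a Cre recombinase expressed from Foxp3, but the study also calls the controls wild type, and which holds is not settled. If the controls lack Cre, its presence and the deletions cannot be told apart in comparisons with control. By this design deletion is meant for cells that have switched Foxp3 on, and the arrays do not show in which cells it took place. Each group had 3 arrays from independent samples. The labels do not say how many mice gave 1 sample, nor their age. If a sample is not a separate animal, the p-values measure only the spread between preparations.

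Adenylyl cyclases convert ATP to cAMP, and soluble guanylate cyclase, which nitric oxide activates, converts GTP to cGMP. Phosphodiesterases hydrolyse either or both. cAMP releases the catalytic subunits of protein kinase A from its regulatory subunits, and one of their substrates is CREB, the transcription factor after which CBP (CREB-binding protein) is named. In T cells cAMP dampens activation, and Treg cells are known for a high cAMP content, part of which they pass to other T cells.

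The values are log2 signals per probe set, summarised by the authors with RMA. A probe set's level can be compared between arrays but not with that of another probe set. Array medians lay between 5.49 and 5.59. Replicate arrays correlated at 0.994 to 0.997 in CBP-deleted, 0.994 to 0.996 in p300-deleted and 0.988 to 0.993 in control cells. The controls therefore varied most, and this held for the 17 probe sets, whose median standard deviation was 0.11 in CBP-deleted, 0.16 in p300-deleted and 0.30 in control arrays. The 18S ribosomal RNA probe sets read 7.39 to 8.0 in CBP-deleted, 7.88 to 9.62 in p300-deleted and 5.82 to 8.88 in control arrays, with control replicate 3 at the top of its group. The 5' over 3' signal of Gapdh, a sign of RNA integrity, was log2 -0.11 to 0.15 in CBP-deleted, -0.17 to -0.06 in p300-deleted and -0.25, -0.60 and -0.20 in control arrays, lowest in control replicate 2. Of the 17 probe sets, 13 were highest of their group in CBP-deleted replicate 1, 13 were highest in p300-deleted replicate 1, 12 were lowest in p300-deleted replicate 3 and 11 were lowest in control replicate 2. Xist, which female cells express, read at most 3.80 in any array, and a group mean under that level is called not told from background. That reading comes from another probe set and is only a rough floor. Folds given as at least a value are estimates against it and leave out the spread between arrays. Crebbp, the gene of CBP, read 7.35, 7.11 and 7.13 in CBP-deleted, 7.67, 7.48 and 7.53 in p300-deleted and 7.56, 7.67 and 7.36 in control arrays, a difference that did not pass (-0.33 against control, adjusted p = 0.152). The labels do not give the deleted exon, so this probe set may lie outside it. Ep300 is not analysed here. T cell genes were high in all groups (Cd3e group means 11.44 in CBP-deleted, 11.65 in p300-deleted and 11.48 in control cells). Foxp3, the defining Treg gene, read 2.73 to 2.97 in CBP-deleted and 2.58 to 3.19 in p300-deleted arrays, against 9.48 to 9.75 in controls, at least 55.7-fold lower in each knockout. Foxp3 was thus not told from background in either knockout, and the reason was not tested. Other Treg markers were above background in all groups. The group means in CBP-deleted, p300-deleted and control cells were 11.28, 11.05 and 10.73 for Ctla4, 5.34, 5.35 and 4.76 for Ikzf2, and 9.09, 9.29 and 9.05 for Il2ra. Tnfrsf18 lay the other way, at 10.95, 11.14 and 11.31 in the same order of groups.

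In CBP-deleted cells 2 enzymes changed, in opposite directions: Gucy1b1, a subunit of soluble guanylate cyclase, rose, and Pde2a, a phosphodiesterase that cGMP stimulates and that hydrolyses cAMP and cGMP, fell. In p300-deleted cells no enzyme changed, although Pde2a was lower there too without passing the test. Between the knockouts only Gucy1b1 differed in the fit of all 9 arrays, by 1 of its probe sets. A fit of only these 2 groups also called Pde2a, Prkacb 1420611_at, and Adcy7 1456307_s_at and 1450065_at. Of the 17 probe sets, 2 rose and 1 fell in CBP-deleted against control cells by limma at an adjusted p of 0.05, where 2.50% of all probe sets were called, 1.26% higher and 1.25% lower. In p300-deleted against control cells 0 of 17 passed, where 2.62% of all probe sets were called, 1.45% higher and 1.17% lower. There 3 of 17 (17.6%) had an unadjusted limma p under 0.05, as did 17.3% of all probe sets. In CBP-deleted against control cells 6 of 17 (35.3%) did, beside 18.9% of all. Between the knockouts 7 of 17 (41.2%) did, beside 16.2% of all. Probe sets of 1 gene are not independent. In CBP-deleted against p300-deleted cells 1 of 17 was higher and 0 were lower, with 3.35% of all called, 2.10% higher and 1.25% lower. The arrays of the compared groups did not overlap for 7, 2 and 10 of the 17, beside 22.8%, 19.7% and 27.5% of all probe sets. The median log2 difference over the 17 was -0.05, 0.12 and -0.22 in these comparisons, beside -0.02, -0.01 and -0.02 over all probe sets. The comparisons with the control use the same 3 control arrays. The plot of every probe set by array gives the values, and the plot of differences gives them with their intervals.

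**Figure D1:**
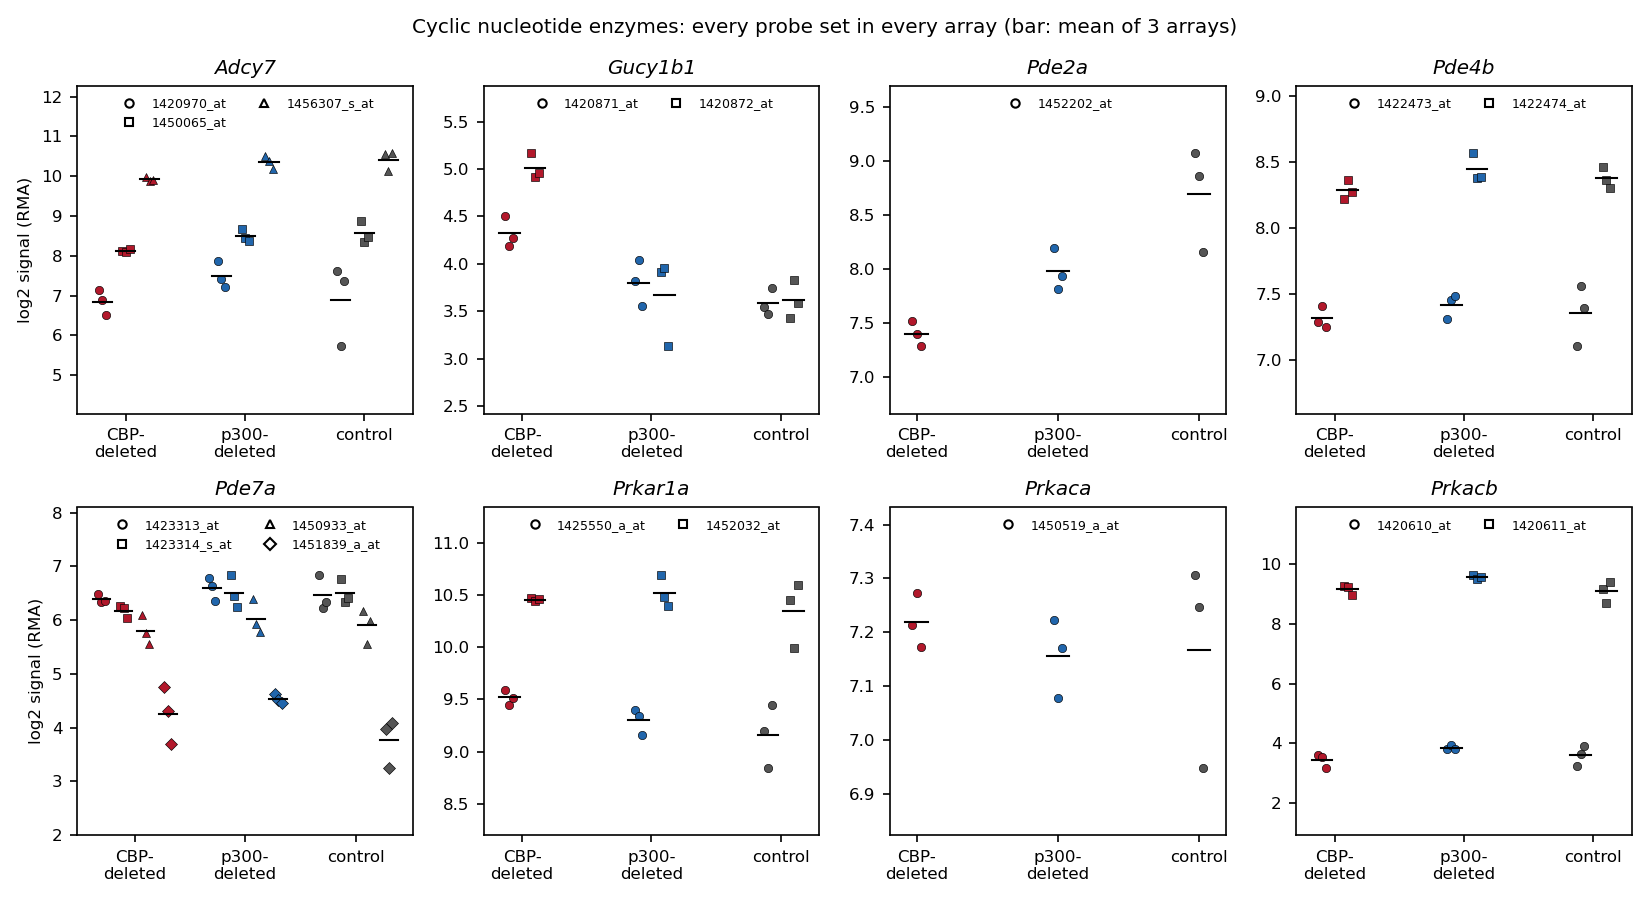
Log2 RMA signal (y axis, linear scale that differs between panels and does not start at 0) of every probe set of the 8 measured enzymes in CBP-deleted, p300-deleted and control arrays. Each point is 1 array, marker shapes are probe sets and bars are means of 3 arrays; the 3 CBP-deleted arrays lie apart from the controls for both Gucy1b1 probe sets and for Pde2a.

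**Figure D2:**
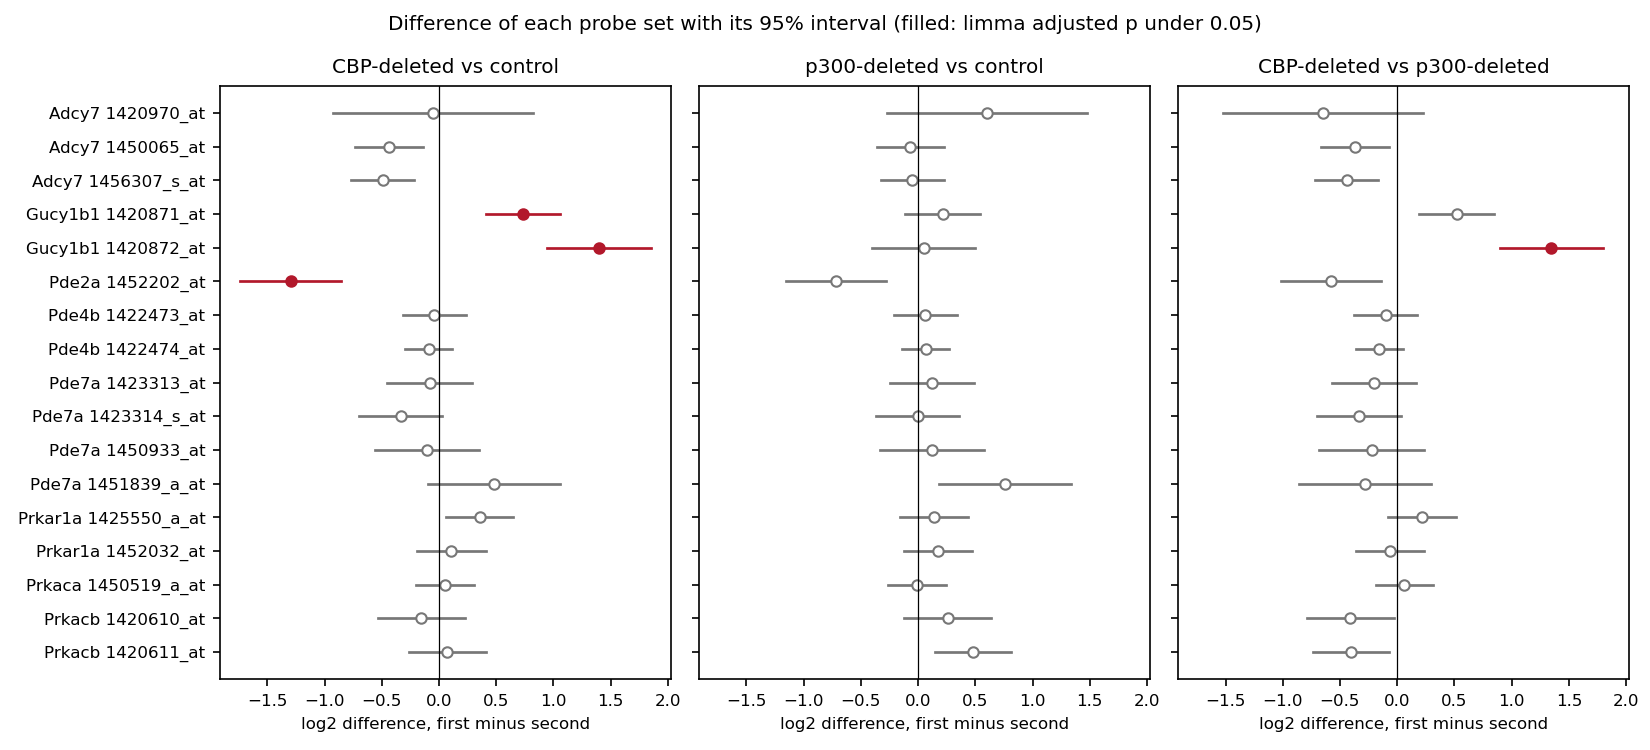
Log2 difference (first group minus second, x axis) of each of the 17 probe sets in the 3 comparisons, with the 95% interval of the limma fit as a line. Filled symbols passed an adjusted p of 0.05: both Gucy1b1 probe sets and Pde2a in CBP-deleted against control cells, none in p300-deleted against control cells, and 1 Gucy1b1 probe set between the knockouts.

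Gucy1b1 encodes the beta 1 subunit of soluble guanylate cyclase, which carries the haem that binds nitric oxide. Its probe set 1420872_at read 5.16, 4.92 and 4.96 in CBP-deleted arrays, 3.91, 3.96 and 3.13 in p300-deleted arrays and 3.43, 3.83 and 3.59 in control arrays. All 3 CBP-deleted arrays were above the other 6, and the p300-deleted and control arrays overlapped. The CBP-deleted mean was 5.01 ± 0.13 (SD, n = 3), against 3.62 ± 0.20 in controls, a log2 difference of 1.40 (SE 0.21, adjusted p = 0.00918). The 95% interval of this difference was 0.95 to 1.85. The control mean is not told from background, so the estimated rise was at least 2.32-fold, taken against the highest Xist reading. Against p300-deleted cells, at 3.67 ± 0.46, the difference was 1.35 (SE 0.21, 95% interval 0.90 to 1.80, adjusted p = 0.00715), again an estimate of at least 2.32-fold. Between p300-deleted and control cells 1420872_at differed by 0.05 (95% interval -0.40 to 0.50, adjusted p = 0.936), with both groups at background. In these bulk samples, fewer cells of a type and less RNA per cell cannot be told apart, in either direction.

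The second Gucy1b1 probe set, 1420871_at, read 4.51, 4.19 and 4.27 in CBP-deleted, 3.82, 4.04 and 3.55 in p300-deleted and 3.55, 3.48 and 3.74 in control arrays. Here too the CBP-deleted arrays were the top 3, by a smaller margin. The difference from control was 0.73 (SE 0.15, adjusted p = 0.0312), or at least 1.43-fold, and that from p300-deleted cells was 0.52 (SE 0.15, adjusted p = 0.0892), which did not pass. The rise of 1420872_at lost its call without control replicate 1 (adjusted p = 0.0521; the 17 alternatives gave 0.00190 to 0.0521), and that of 1420871_at in 8 of 16 alternatives (range 0.0104 to 0.121).

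Soluble guanylate cyclase is a dimer, and the alpha 1 partner of the beta 1 subunit is encoded by Gucy1a1, the neighbouring protein-coding gene on chromosome 3 in the RefSeq annotation. Gucy1a1 was looked at in detail after its values had been seen. Its dimmer probe set, 1420534_at, read 3.47, 3.52 and 3.55 in CBP-deleted, 2.58, 2.80 and 2.54 in p300-deleted and 2.66, 2.70 and 2.69 in control arrays. The CBP-deleted arrays were again the highest 3, with adjusted p = 0.00310 against control and adjusted p = 0.00234 against p300-deleted cells. These calls were kept in all 15 alternatives that could be fitted for it. All 3 group means are under the highest Xist reading, so no fold is given. The brighter Gucy1a1 probe set, 1420533_at, read 4.59, 4.39 and 3.88 in CBP-deleted, 4.04, 3.86 and 3.80 in p300-deleted and 4.29, 4.09 and 4.14 in control arrays. The CBP-deleted and control arrays overlapped, and the difference of 0.11 did not pass (adjusted p = 0.775). The probe sets of Gucy1a1 therefore differ in their calls, as the plot of guanylate cyclase subunits shows.

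**Figure D3:**
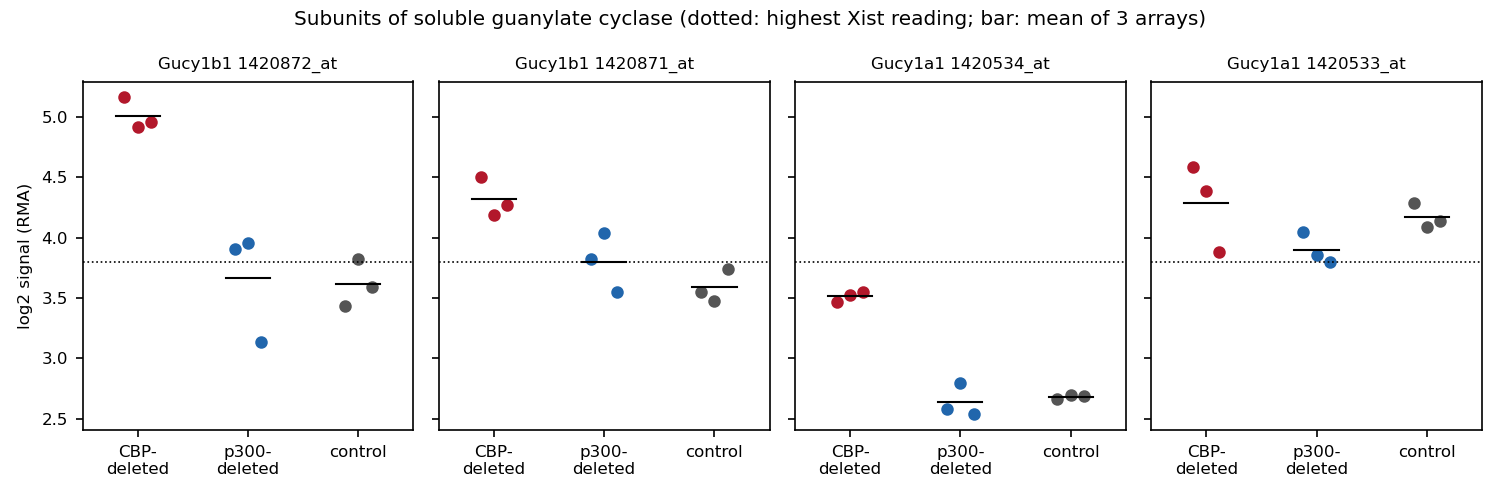
Log2 RMA signal (shared y axis, not starting at 0) of the 2 Gucy1b1 and 2 Gucy1a1 probe sets in CBP-deleted, p300-deleted and control arrays; points are arrays, bars are means of 3, and the dotted line is the highest Xist reading (3.80). The CBP-deleted arrays stand above the rest in the 3 panels from the left, and Gucy1a1 1420534_at lies under the dotted line throughout.

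The stretch before the Gucy1b1 start site is shown because CREB, through which CBP was named, binds the cAMP response element (CRE) TGACGTCA or its core TGACG. The sequence is that of RefSeq, build GRCm38.p6, chr3:82074712-82074961, minus strand, and covers the 250 bases before the start. Capitals mark the core, searched on both strands (TGACG or CGTCA) and counted also inside a full CRE.
Gucy1b1: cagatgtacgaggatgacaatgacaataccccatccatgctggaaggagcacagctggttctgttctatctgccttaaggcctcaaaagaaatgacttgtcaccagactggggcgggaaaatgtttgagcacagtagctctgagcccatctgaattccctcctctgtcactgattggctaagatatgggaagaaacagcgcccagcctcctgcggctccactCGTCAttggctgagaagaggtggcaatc
It holds 1 core, at position -28 from the start, and no full CRE. Among 32851 RefSeq promoter windows, each from 250 bases before to 50 after a start, 20.8% held a core and 1.79% a full CRE. In the 250 bases before the start alone, a core stood in 17.8% of windows. A match of these letters is a description of the sequence and not evidence of binding.

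Adcy7 encodes adenylyl cyclase 7, a membrane enzyme that makes cAMP and is prominent in blood cells. Its brightest probe set, 1456307_s_at, of a kind that can share probes with other transcripts, read 9.99, 9.87 and 9.91 in CBP-deleted, 10.52, 10.39 and 10.19 in p300-deleted and 10.56, 10.12 and 10.57 in control arrays. The CBP-deleted arrays were below all others, and the p300-deleted and control arrays overlapped. CBP-deleted differed from control cells by -0.49 (SE 0.12, adjusted p = 0.0615), and from p300-deleted cells by -0.44 (SE 0.12, adjusted p = 0.0847). Neither passed. The difference from control passed in 4 of 17 alternatives, among them without control replicate 2 (-0.64, adjusted p = 0.0129), and the range was 0.00548 to 0.190. The difference from p300-deleted cells passed in 3 of 17 alternatives, among them the fit of only the 2 knockouts (adjusted p = 0.0144). Probe set 1450065_at had the same order, with 8.13, 8.09 and 8.16 in CBP-deleted, 8.67, 8.45 and 8.36 in p300-deleted and 8.86, 8.36 and 8.47 in control arrays. Its difference from control was -0.44 (SE 0.13, adjusted p = 0.105). From p300-deleted cells it was -0.37 (adjusted p = 0.183), which passed in the fit of only the 2 knockouts (adjusted p = 0.0401). The third, 1420970_at, read 7.15, 6.89 and 6.52 in CBP-deleted, 7.88, 7.41 and 7.22 in p300-deleted and 7.61, 5.73 and 7.36 in control arrays. Control replicate 2 was far below the other controls there, and CBP-deleted differed from control cells by -0.05 (95% interval -0.93 to 0.82). In p300-deleted cells none of the 3 probe sets passed against control, at -0.05, -0.07 and 0.60 in the same order. One RefSeq promoter of Adcy7 also has a core, at position -28 (chr8:88282954-88282978, plus strand), shown with 10 bases on each side.
Adcy7: atcatagagcCGTCAggggggtggg

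Pde2a was the phosphodiesterase that changed. Its single probe set, 1452202_at, read 7.52, 7.40 and 7.29 in CBP-deleted, 8.20, 7.81 and 7.94 in p300-deleted and 9.07, 8.86 and 8.16 in control arrays. All CBP-deleted arrays were below all others, and the lowest control, replicate 3, lay within the p300-deleted range. The mean was 7.40 ± 0.11 in CBP-deleted cells, 7.98 ± 0.20 in p300-deleted cells and 8.70 ± 0.48 in control cells (SD, n = 3 each). Against control, Pde2a fell 2.46-fold in CBP-deleted cells (log2 difference -1.30, SE 0.20, adjusted p = 0.0113). In p300-deleted cells it differed from control by -0.72 (SE 0.20, 95% interval -1.15 to -0.28, adjusted p = 0.0847), which did not pass. The knockouts differed by -0.58 (SE 0.20, 95% interval -1.02 to -0.14, adjusted p = 0.157). The order of the groups was thus CBP-deleted, p300-deleted and control from low to high, and neither pair of neighbours differed at the threshold.

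Single arrays moved these calls. Without control replicate 3 the p300-deleted difference was -0.98 and passed (adjusted p = 0.00390; the 17 alternatives gave 0.00390 to 0.293). The same omission changes only the estimated spread of the difference between the knockouts, which then passed (adjusted p = 0.0184). That difference passed in 4 of 17 alternatives in all, among them the fit of only the 2 knockouts (adjusted p = 0.0148). The fall in CBP-deleted cells lost its call without CBP-deleted replicate 3 (adjusted p = 0.0597) and, marginally over the threshold, without replicate 2 (adjusted p = 0.05), and the 17 alternatives spanned 0.000533 to 0.0597. The 250 bases before the first RefSeq start of Pde2a (GRCm38.p6, chr7:101421441-101421690, plus strand) are shown for comparison with those of Gucy1b1.
Pde2a: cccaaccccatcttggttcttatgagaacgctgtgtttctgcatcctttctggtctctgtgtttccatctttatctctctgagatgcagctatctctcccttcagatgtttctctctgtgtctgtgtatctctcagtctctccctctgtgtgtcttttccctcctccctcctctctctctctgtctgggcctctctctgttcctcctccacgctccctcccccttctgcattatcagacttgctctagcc
They hold no core and no full CRE. Of the 5 RefSeq windows of Pde2a, 1 holds a core, at position 15 in the transcript.

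Pde4b hydrolyses cAMP and is the phosphodiesterase of the PDE4 family known for a role in T cell receptor signalling. It was nearly level across the groups. Probe set 1422474_at read 8.22, 8.37 and 8.27 in CBP-deleted, 8.56, 8.38 and 8.39 in p300-deleted and 8.46, 8.37 and 8.30 in control arrays. The CBP-deleted and p300-deleted arrays overlapped the controls, and the differences from control were -0.09 (95% interval -0.29 to 0.12) and 0.07 (-0.14 to 0.27). Probe set 1422473_at differed from control by -0.04 (-0.31 to 0.23) in CBP-deleted and 0.06 (-0.21 to 0.34) in p300-deleted cells.

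Pde7a, a cAMP-specific phosphodiesterase, had 4 probe sets and 0 passed in any comparison. The brightest by mean over the arrays, 1423313_at, read 6.48, 6.34 and 6.35 in CBP-deleted, 6.79, 6.64 and 6.35 in p300-deleted and 6.84, 6.23 and 6.34 in control arrays, all overlapping. The 3 brighter probe sets differed from control by -0.08, -0.34 and -0.10 in CBP-deleted cells (adjusted p of 0.307 to 0.843) and by 0.12, 0.00 and 0.12 in p300-deleted cells. The dimmest, 1451839_a_at, went the other way in CBP-deleted cells. It read 4.76, 4.30 and 3.69 in CBP-deleted, 4.62, 4.52 and 4.45 in p300-deleted and 3.97, 3.25 and 4.08 in control arrays. The p300-deleted arrays lay above the controls, with a difference of 0.76 (SE 0.26, adjusted p = 0.154), and the control mean of 3.77 is not told from background.

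Protein kinase A was read through 1 regulatory and 2 catalytic subunits, and 0 of their 5 probe sets passed in any comparison. Prkar1a encodes the type I alpha regulatory subunit, which holds the kinase inactive until cAMP binds. Its probe set 1425550_a_at read 9.59, 9.45 and 9.52 in CBP-deleted, 9.40, 9.34 and 9.16 in p300-deleted and 9.20, 8.85 and 9.45 in control arrays. The CBP-deleted arrays were the top 3, with replicate 2 level with control replicate 3 to 2 decimals, and the difference from control was 0.35 (SE 0.13, adjusted p = 0.178). Without control replicate 3 it was 0.50 and passed (adjusted p = 0.0313; the 16 alternatives gave 0.0313 to 0.379). The brighter probe set, 1452032_at, differed from control by 0.11 (95% interval -0.19 to 0.41) in CBP-deleted and 0.17 (-0.13 to 0.47) in p300-deleted cells.

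The catalytic subunits phosphorylate the targets of the pathway. Prkaca was level, at 7.21, 7.27 and 7.17 in CBP-deleted, 7.22, 7.08 and 7.17 in p300-deleted and 7.31, 7.25 and 6.95 in control arrays. Its differences from control were 0.05 (95% interval -0.20 to 0.30) in CBP-deleted and -0.01 (-0.26 to 0.24) in p300-deleted cells. Prkacb probe set 1420611_at read 9.27, 9.25 and 8.98 in CBP-deleted, 9.64, 9.51 and 9.56 in p300-deleted and 9.17, 8.72 and 9.40 in control arrays. The p300-deleted arrays were above both other groups, by 0.48 over control (SE 0.15, adjusted p = 0.125), and CBP-deleted cells differed from them by -0.41 (SE 0.15, adjusted p = 0.199). Neither passed. Without control replicate 3 the difference between p300-deleted and control cells was 0.63 and passed (adjusted p = 0.0262; the 17 alternatives gave 0.0262 to 0.443). The difference between the knockouts passed in 3 of 17 alternatives, among them the fit of only those 2 groups (adjusted p = 0.0249). The other Prkacb probe set, 1420610_at, read 3.18 to 3.6 in CBP-deleted, 3.81 to 3.92 in p300-deleted and 3.22 to 3.91 in control arrays, around the background level.

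Prkar1a was the enzyme of the set with a full CRE in a RefSeq promoter window, at position -49 from one of its start sites (chr11:109650890-109650917, plus strand, capitals mark the CRE). Cores stood in windows of Prkaca (chr8:83972962-83972986, plus strand), Prkacb (chr3:146813034-146813058, minus strand) and Pde4b (chr4:102421511-102421535, plus strand), shown with 10 bases on each side.
Prkar1a: cgaggcgcatTGACGTCAgcagccgaac
Prkaca: gctgcgggggCGTCAcggacagagg
Prkacb: ggcttgaccgCGTCActtccggcgc
Pde4b: tttggctgcaCGTCAattttctcat
In all, 9 of 25 windows of the enzymes held a core, beside 20.8% of all windows. Windows of a gene can overlap, and 2 Prkar1a windows hold the same CRE. Of the 8 enzymes with a window, 7 had a core in at least 1 window, where 23.0% of all 27025 genes did. Pde4d was the exception. These 8 include Pde4d, whose signal is not analysed here, and leave out Pde3b and Pde7a, which have no window. Most of the enzymes have several windows, so the share of genes is not on a level with that of single-promoter genes. The 2 that changed were not alike: the single Gucy1b1 window had a core before the start, and 4 of the 5 Pde2a windows had none.

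By 1 probe set per gene, the brightest over all 9 arrays, 1 of the 8 enzymes rose and 1 fell in CBP-deleted cells, with 2.95% of all 12393 genes called, 1.24% higher and 1.71% lower. Of 75 other genes of the pathway with a probe set, 2 were called in CBP-deleted against control cells (2.67%), 2 in p300-deleted against control cells (2.67%) and 5 between the knockouts (6.67%, where 4.08% of all genes were called). Among 11 of 17 listed other cyclases with a probe set, none rose and 1 fell in each knockout. In p300-deleted cells 2.82% of all genes were called, 1.39% higher and 1.44% lower. The fall in p300-deleted cells was that of Adcy6, an adenylyl cyclase that calcium inhibits. It read 7.42, 7.09 and 7.16 in CBP-deleted, 6.82, 6.72 and 6.72 in p300-deleted and 7.76, 7.56 and 7.73 in control arrays, and no groups overlapped. Against control, Adcy6 differed in p300-deleted cells by -0.93 on the log2 scale (SE 0.11, adjusted p = 0.00368). CBP-deleted cells were -0.46 from control (adjusted p = 0.0602), and the knockouts differed by 0.47 (adjusted p = 0.0494). The p300-deleted fall was called in all 17 alternatives, whereas the difference between the knockouts lost its call in 9 of 17 (range 0.0183 to 0.177). The fall in CBP-deleted cells was that of Npr2, a receptor guanylate cyclase for C-type natriuretic peptide, at 3.66, 3.61 and 3.90 in CBP-deleted, 3.84, 3.64 and 4.02 in p300-deleted and 4.37, 4.18 and 4.37 in control arrays. It was at least 1.42-fold lower than in control (adjusted p = 0.0470), near the background level, and lost its call in 11 of 17 alternatives (range 0.0106 to 0.158).

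Of 14 other phosphodiesterases with a probe set, 0 passed against control in either knockout, and 1 of 14 was lower in CBP-deleted than in p300-deleted cells, with 4.08% of genes called, 2.49% higher and 1.59% lower. That was Pde8a, a cAMP-specific enzyme, at 6.83, 6.73 and 6.80 in CBP-deleted, 7.56, 7.48 and 7.27 in p300-deleted and 7.33, 7.12 and 7.16 in control arrays. All CBP-deleted arrays were below both other groups. The knockouts differed by -0.65 (SE 0.11, adjusted p = 0.0110), and the call was lost in 3 of 17 alternatives (range 0.00130 to 0.0713). Against control the difference was -0.42 in CBP-deleted (adjusted p = 0.0716) and 0.24 in p300-deleted cells (adjusted p = 0.306). Among 6 other subunits and inhibitors of protein kinase A, 11 anchoring proteins (AKAPs) and 7 other effectors and exporters, 0 passed in any comparison. Among the anchoring proteins, Akap1 (0.54, adjusted p = 0.0629) and Akap2 (-0.46, adjusted p = 0.306) had the largest differences in CBP-deleted against control cells. In p300-deleted against control cells they were Akap10 (0.53, adjusted p = 0.178) and Cbfa2t3 (-0.39, adjusted p = 0.432). Between the knockouts they were Akap9 (-0.51, adjusted p = 0.486) and Akap1 (0.50, adjusted p = 0.0810). Prkx, a kinase close to the catalytic subunits, differed from control by -0.34 in CBP-deleted cells (adjusted p = 0.0606).

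Upstream, 1 of 14 receptors, ligand enzymes and G proteins rose in p300-deleted cells and 0 passed in CBP-deleted cells. Of all genes, 1.39% were called higher in p300-deleted cells, and 2.95% were called in CBP-deleted cells. Ptger2, a prostaglandin E2 receptor that raises cAMP, read 7.12, 7.21 and 7.0 in CBP-deleted, 8.28, 7.93 and 7.67 in p300-deleted and 7.01, 7.39 and 7.26 in control arrays. The p300-deleted arrays were above the other 6. The difference from control was 0.74 (SE 0.16, adjusted p = 0.0329, call lost in 8 of 17 alternatives, range 0.00941 to 0.128). CBP-deleted cells were -0.85 from p300-deleted cells (SE 0.16, adjusted p = 0.0151, call lost in 5 of 17 alternatives, range 0.00290 to 0.0691). The largest differences between CBP-deleted and control cells lay in opposite directions, and neither passed. Nt5e, the ectoenzyme CD73 that makes adenosine, was at 0.59 (adjusted p = 0.304), with overlapping arrays. The receptor gene Ptgir was at -0.56 (adjusted p = 0.0607), with all CBP-deleted arrays below the controls. For p300-deleted against control cells the values were 0.56 for Nt5e (adjusted p = 0.347) and -0.36 for Ptgir (adjusted p = 0.217). Of the 14 genes, 5 had a positive difference from control when CBP was deleted (median -0.08), and 7 when p300 was.

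Downstream, of 12 genes that cAMP induces in many cells, 0 rose and 1 fell in CBP-deleted cells, 0 passed in p300-deleted cells, and 2 were lower in CBP-deleted than in p300-deleted cells. Of all genes, 1.71% were called lower in CBP-deleted cells, 2.82% were called in p300-deleted cells, and 1.59% were lower between the knockouts. Other signals induce these genes too. Dusp1, a phosphatase of MAP kinases, read 11.92 to 12.03 in CBP-deleted, 12.55 to 12.95 in p300-deleted and 12.45 to 12.64 in control arrays. It fell by 0.54 in CBP-deleted against control cells (SE 0.09, adjusted p = 0.0190, call lost in 4 of 17 alternatives, range 0.00303 to 0.0892), and was -0.78 from p300-deleted cells (SE 0.09, adjusted p = 0.00395). Fos, an AP-1 component, read 12.34, 12.09 and 11.97 in CBP-deleted, 12.74, 12.75 and 12.92 in p300-deleted and 12.61, 12.48 and 12.44 in control arrays. CBP-deleted arrays were the lowest 3 for Dusp1 and Fos. Fos was -0.67 from p300-deleted cells (SE 0.09, adjusted p = 0.00531) and -0.38 from control (adjusted p = 0.0565), which did not pass. Crem, a cAMP-responsive transcription factor, lay the other way, at 7.30, 6.88 and 7.38 in CBP-deleted, 6.50, 7.28 and 7.02 in p300-deleted and 6.46, 6.58 and 6.26 in control arrays. All CBP-deleted arrays were above the controls, and the difference of 0.75 did not pass (adjusted p = 0.0666). Sik1, a kinase, differed from control by 0.50 in CBP-deleted (adjusted p = 0.351) and 0.75 in p300-deleted cells (adjusted p = 0.171). The median difference of the 12 genes was -0.15 in CBP-deleted against control, 0.20 in p300-deleted against control and -0.27 between the knockouts, beside -0.03, -0.02 and -0.02 over all genes. The difference was positive for 3, 11 and 2 of the 12 genes in these comparisons, beside 5376, 5568 and 5689 of all 12393 genes.

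**Figure D4:**
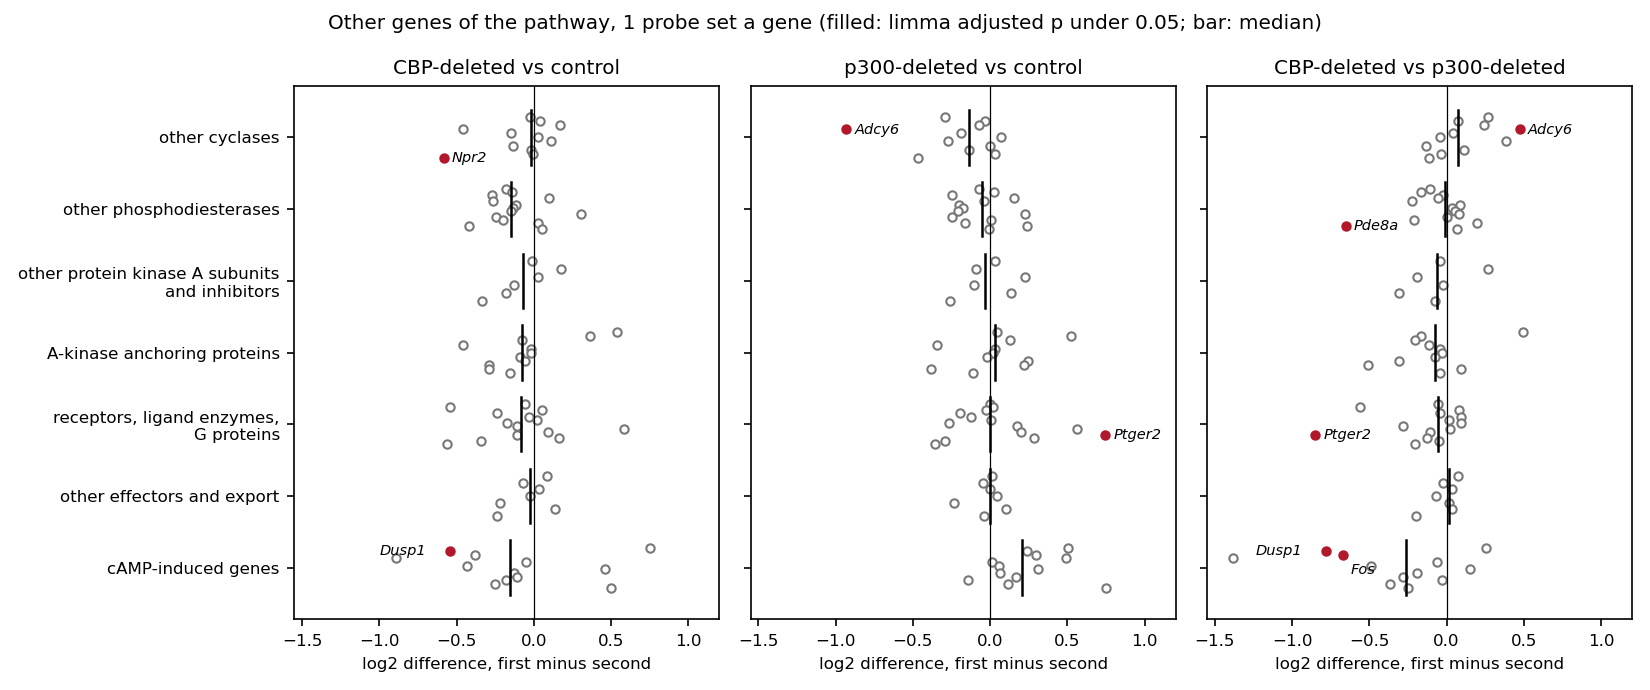
Log2 difference (first group minus second, x axis) of the other genes of the pathway in 3 comparisons, by list; each point is 1 gene, filled points passed an adjusted p of 0.05 and are named, and bars are list medians. The named genes are Npr2 and Dusp1 in CBP-deleted against control cells, Adcy6 and Ptger2 in p300-deleted against control cells, and Adcy6, Pde8a, Ptger2, Dusp1 and Fos between the knockouts.

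For the 2 enzymes that changed, the 12130 named genes were ranked by how closely their values, each centred on its own mean over the 9 arrays, followed them. The nearest to Pde2a were Cnr2, a cannabinoid receptor, Sec16b, a protein of the secretory pathway, and Gbp2b, a guanylate-binding protein. Their root mean square differences from Pde2a were 0.15, 0.20 and 0.20 log2 units, where Pde2a itself varied by 0.59. Nearest to Gucy1b1 were Ptgr1, a prostaglandin reductase, Prim1, a primase subunit, and Dsp, desmoplakin, at 0.34, 0.36 and 0.38, where Gucy1b1 varied by 0.69. The match to Pde2a was thus closer than that to Gucy1b1, and this is a description of 9 arrays of 3 groups. Sec16b read under the highest Xist reading in every array but control replicate 1, and Dsp in all p300-deleted and control arrays and CBP-deleted replicate 3.

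**Figure D5:**
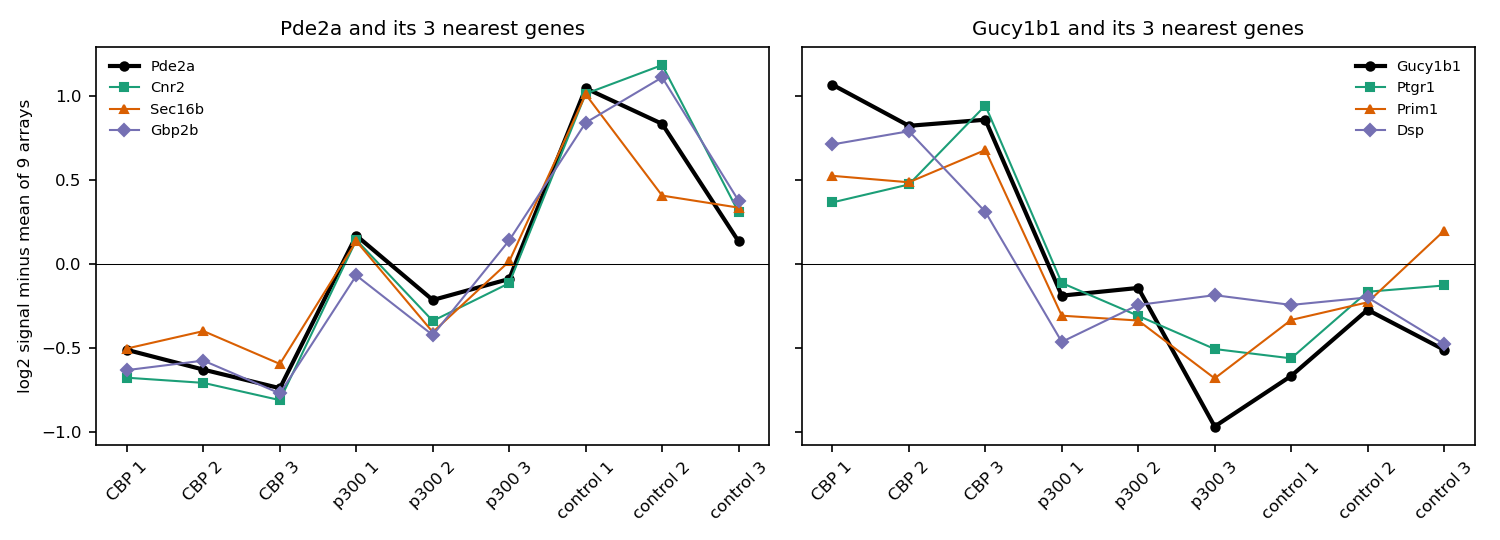
Log2 signal minus its mean over 9 arrays (y axis) for Pde2a (left) and Gucy1b1 probe set 1420872_at (right), each with its 3 nearest genes, by array (x axis, CBP-deleted, p300-deleted and control replicates 1 to 3). Pde2a, Cnr2, Sec16b and Gbp2b are lower in every CBP-deleted array than in any control array; the p300-deleted arrays lie between on average, overlapping the controls for Pde2a and the CBP-deleted arrays for Sec16b, and control replicate 3 is the lowest control for all 4.

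Markers of other cells moved with the groups as well. The summed signal of 5 of 6 B cell markers was log2 8.37 to 8.97 in CBP-deleted, 9.06 to 9.52 in p300-deleted and 9.39 to 9.71 in control arrays. Pax5 was not told from background in any group. Pde2a had the same order of group means, and so did the erythroid markers below (5.44, 5.87 and 6.16). That of 10 neutrophil and myeloid markers was 9.29 to 12.16 in CBP-deleted, 9.58 to 11.63 in p300-deleted and 7.98 to 9.29 in control arrays, with Itgam at background in all groups. Of 5 plasma cell markers, all above background, the summed signal was 12.21 to 12.60 in CBP-deleted, 13.25 to 13.50 in p300-deleted and 12.24 to 12.57 in control arrays. Of 6 mast cell and basophil markers it was 7.51 to 8.67, 8.65 to 9.52 and 7.50 to 7.67 in the same order of groups, with Ms4a2 at background in all. For 8 markers of CD8 T cells and of NK cells, all above background, it was 10.29 to 10.82, 10.93 to 11.26 and 10.65 to 10.98. Unlike the other markers of this list, Cd8b1 (group means 7.34, 6.92 and 6.59) and Gzmk (6.37, 5.97 and 5.35) were highest in CBP-deleted cells. The platelet list of 5 of 7 markers read 7.36 to 7.47 in CBP-deleted, 7.33 to 7.39 in p300-deleted and 7.45 to 7.84 in control arrays, with Ppbp at background in all groups. The 3 of 7 erythroid markers read 5.29 to 5.56 in CBP-deleted, 5.56 to 6.15 in p300-deleted and 5.77 to 6.79 in control arrays, with Hba-a1 at background, and the 6 of 7 dendritic cell markers lay between 9.18 and 9.42 in all arrays, with Xcr1 at background. The part of these cells in the differences above was not tested.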

How the data were processed

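RNA of 9 mouse CD4+CD25+ Treg samples was labelled with biotin from 100 ng of total RNA, per the labels' protocols, and hybridised to single-channel Affymetrix 3' arrays. The authors deposited 1 log2 value per probe set and array, made with RMA per the submitters' processing notes; the version, settings and annotation are not given in the sources used here. Of 22690 probe sets, 64 control probe sets were set aside. Of the 22626 tested, 20380 carry 1 gene symbol, 691 several and 1555 none in the annotation used; 29 of the gene IDs had no match in RefSeq (GRCm38.p6) and 0 symbols changed. Arrays have no read depth; the number of arrays limits the precision.

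Every probe set was fitted with limma 3.58.1 in R 4.3.3 (a mean for each group, all 9 arrays in one model, empirical Bayes with a trend on mean expression, two-sided, Benjamini-Hochberg over all probe sets, called at 0.05). Adjusted p-values, standard errors and intervals are from that fit, and SDs are over the 3 arrays of a group. The procedure was also run on simulated data with the same spread in every group. That run does not cover the larger spread of the controls. Lists were read by 1 probe set per gene, the brightest on average. Named from each of the 7 pathway lists were at most 4 called genes by size of change and, with none called, at most 2 others as values (not all are printed), and for each enzyme that changed its 3 nearest genes. The enzymes and the lists were chosen with earlier results of these data known. Alternatives were the choice of probe sets, a filter on dim ones, the variance prior, array scaling, the groups in the fit, a replicate block, the 18S level, array weights and leaving out each array.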

Additional observations from a re-analysis of the deposited data

Results flagged for a closer look

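The effects of the 2 deletions against the shared control differed, by the test of the difference itself (CBP-deleted minus p300-deleted, limma), for 1 of 8 enzymes and 5 of 75 other genes of the pathway, where 4.08% of all genes were called. Gucy1b1 (1420872_at) differed by 1.35 on the log2 scale (adjusted p = 0.00715). The p300-deleted mean is not told from background, so this stands for an estimate of at least 2.32-fold. Among the other genes, Adcy6 differed by 0.47 (adjusted p = 0.0494), Pde8a by -0.65 (adjusted p = 0.0110), Ptger2 by -0.85 (adjusted p = 0.0151), Dusp1 by -0.78 (adjusted p = 0.00395) and Fos by -0.67 (adjusted p = 0.00531). For each of the 6, the CBP-deleted and p300-deleted arrays did not overlap, as for 27.5% of all probe sets. The 6 were picked by the test of this same difference, so this adds no separate evidence. Groups of 3 arrays are too small for a test of single outlying arrays.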

How the results depend on the processing

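Of the enzymes' probe sets, 3 were called in CBP-deleted against control, 0 in p300-deleted against control and 1 between the knockouts. Leaving out 1 array at a time gave 1 to 4, 0 to 2 and 1 to 3. Array weights gave 5, 1 and 4, the fit of only the 2 groups compared gave 5 between the knockouts, and the 18S level as a covariate gave 2 there. The 5 of the fit of 2 groups were Gucy1b1 1420872_at, Pde2a, Prkacb 1420611_at, and Adcy7 1456307_s_at and 1450065_at. Correlations of the arrays' deviations from their group means were above 0.1 in 1 of 9 same-numbered pairs and in 4 of 18 others. They ranged from -0.22 to 0.26 in same-numbered pairs and from -0.23 to 0.21 in the others. These correlations cannot settle whether same-numbered samples were prepared together, and the labels name no pairing. The replicate block gave 2, 0 and 1, and Gucy1b1 1420871_at (adjusted p = 0.0658), Npr2 and Ptger2 against control and Adcy6 between the knockouts lost their calls. The other planned settings moved no count of enzyme probe sets by over 1.5 times. No called difference of the enzymes changed sign in any alternative. Over all probe sets the counts were 566, 592 and 758. They moved to 193, 130 and 1733 with only the 2 groups compared, to 2302, 1388 and 2011 with array weights, to 262 and 278 against control with the replicate block, to 349 and 184 against control with the 18S covariate, and to 356 in p300-deleted cells with the mean of a gene's probe sets. Without 1 array they ranged from 85 to 1624, 74 to 1377 and 134 to 1270. The count moved by over 1.5 times upward without control replicate 3 in all comparisons and without control replicate 2 in both that hold CBP-deleted cells. It moved as far downward without control replicate 1 in both comparisons with control, and without any array of the groups compared that were knockouts, except p300-deleted replicate 3 against control; it also did so without p300-deleted replicate 2 in CBP-deleted against control and without each CBP-deleted array in p300-deleted against control. Fewer arrays make the test less sensitive; other causes of these shifts were not tested. Alternatives for the pathway genes and Gucy1a1 were added after their values had been seen. Signals near background limit Gucy1b1, Gucy1a1 and Npr2.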
